A study of Mus musculus with 62 samples.

Results

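The SLC25 family holds the solute carriers of the inner mitochondrial membrane, and its transcripts were followed in mouse gastrocnemius while cachectic or non-cachectic melanoma cells grew in the animal. Members were taken by name, as every gene symbol made of Slc25a and a number, which gave 47 of the 47643 symbols measured. Of these 47, 37 reached at least 1 TPM (a transcript level corrected for length and set to a fixed total per library) in at least 5 of the 62 libraries and were tested among 12364 genes. The other 10 stayed under this limit and are described by level. Uncoupling proteins and the carrier homologues Mtch1 and Mtch2 belong to the same protein family under other symbols and are given with the related genes.

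The inner mitochondrial membrane is closed to most metabolites, and SLC25 carriers exchange nucleotides, phosphate, organic acids, amino acids, acylcarnitines, cofactors and iron across it. Muscle depends on the ADP/ATP carrier and the phosphate carrier to send the ATP of oxidative phosphorylation to the contractile proteins. The oxoglutarate carrier and the aspartate/glutamate carrier are the membrane steps of the malate-aspartate shuttle, which brings the reducing equivalents of glycolysis into the matrix.

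The muscles came from female mice injected at 2 months of age. CAC mice received cachectic melanoma cells, NCAC mice received non-cachectic melanoma cells and Con mice were mock injected. Muscle was taken after 2, 4, 6 or 8 weeks, with 5 libraries per group and week except for 7 in CAC at 8 weeks. The sample labels give the strain as C57BL6/J and the series design names nude mice, so the strain is uncertain. The labels name no cell line and give no muscle weight. They call the libraries biological replicates.

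Estimated depth ran from 39.61 to 48.34 M reads per library, with overlapping ranges in CAC, NCAC and Con. The 12 fast fibre markers, the defining genes of this fast muscle, summed at 8 weeks to 155172 to 213501 TPM in CAC, 194912 to 240662 in NCAC and 179225 to 207940 in Con. TPM values are shares of a fixed total. The protein genes of mitochondrial DNA took 24.1 ± 3.53 percent of that total at 8 weeks in CAC (SD, n = 7), against 32.2 ± 3.08 percent in NCAC and 33.5 ± 3.02 percent in Con (SD, n = 5 each). The median log2 difference of all tested genes between CAC and Con was 0.088 at 2 weeks, 0.168 at 4, 0.275 at 6 and 0.357 at 8. Median-ratio scaling, which sets the typical gene to the same level in every library, brought it to 0.008, 0.005, 0.007 and 0.022. Values below are on the deposited TPM, and the result after this scaling is given where the call or the direction differs. Means are given ± SD, with n = 7 in CAC at 8 weeks and n = 5 in every other group of a week. In bulk muscle, fewer cells of a type and less RNA per cell cannot be told apart.

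Promoter windows from RefSeq (GRCm38.p6, 250 bases before to 50 after the start of transcription) were matched for 36 of the 47 members. The 220 bases just before the RefSeq start are shown for the ADP/ATP carrier genes Slc25a4 and Slc25a5, whose ratio differed between groups. They are also shown for Slc25a25 and Slc25a36, the members with a cyclic AMP response element. Gene models differ in the start. In GENCODE M21 Slc25a4 reaches to 46211284, Slc25a36 to 97111157 and Slc25a25 to 32451445, all on the minus strand. By those models the stretches of Slc25a4 and Slc25a25 lie inside the gene, and that of Slc25a36 lies partly inside. Each stretch runs 5′ to 3′ on the strand of the gene, and capitals mark a CREB (TGACGTCA) or STAT (TTCNNNGAA) element.
Slc25a4 (chr8:46211063-46211282, minus strand): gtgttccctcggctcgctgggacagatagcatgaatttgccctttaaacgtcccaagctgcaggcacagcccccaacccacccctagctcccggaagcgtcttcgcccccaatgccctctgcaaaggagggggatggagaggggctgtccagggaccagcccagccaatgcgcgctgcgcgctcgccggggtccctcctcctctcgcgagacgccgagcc
Slc25a5 (chrX:36795377-36795596, plus strand): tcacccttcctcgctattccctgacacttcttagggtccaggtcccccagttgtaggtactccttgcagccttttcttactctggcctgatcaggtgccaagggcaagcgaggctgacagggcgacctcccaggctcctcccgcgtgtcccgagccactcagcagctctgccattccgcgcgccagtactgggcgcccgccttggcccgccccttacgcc
Slc25a25 (chr2:32424067-32424286, minus strand): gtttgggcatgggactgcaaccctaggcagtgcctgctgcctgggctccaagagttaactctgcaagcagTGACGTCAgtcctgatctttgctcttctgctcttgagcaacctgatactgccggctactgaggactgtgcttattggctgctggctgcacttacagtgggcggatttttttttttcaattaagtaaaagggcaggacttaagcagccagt
Slc25a36 (chr9:97111042-97111261, minus strand): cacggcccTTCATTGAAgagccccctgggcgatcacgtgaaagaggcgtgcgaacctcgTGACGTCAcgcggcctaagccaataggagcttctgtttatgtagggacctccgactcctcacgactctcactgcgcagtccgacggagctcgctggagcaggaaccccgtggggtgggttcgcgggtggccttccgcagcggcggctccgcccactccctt

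Neither ADP/ATP carrier window held any of the 6 motifs searched, and the GC contents of the bases shown were 66.4% for Slc25a4 and 64.1% for Slc25a5. The CREB element began at position -150 from the RefSeq start in Slc25a25 and at -161 in Slc25a36. This made 2 of 36 members, against 2.03% of all 27025 genes with a window. The Slc25a25 window is 1 of 3 for that gene. It was shown because it held the most matches, and the others held none of the 6 motifs. The STAT element was found in 2 members, Slc25a36 at -212 and Slc25a54, against 9.55% of all genes. The NRF1 element (GCGC, 2 bases of any kind, GCGC) was found in 3 members, Slc25a3, Slc25a10 and Slc25a31, against 7% of all genes. The ERR element (TNAAGGTCA, 1.43% of all genes), the glucocorticoid response element (searched by its consensus, 0.537%) and the FoxO element (GTAAACA, 4.05%) were found in 0 members. Both strands were searched, and in the members' windows matches of different motifs did not overlap. A match is a run of letters in a short window and not a bound site.

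A few members made up most of the family's RNA. In the 20 Con libraries Slc25a4, the ADP/ATP carrier of heart and muscle (chromosome 8, 46206797 to 46211284, minus strand, GRCm38), averaged 3411 ± 239 TPM (SD) and held 71.8% of the summed TPM of the 47 members. The oxoglutarate carrier Slc25a11 followed with 378 ± 37.9 TPM, the phosphate carrier Slc25a3 with 296 ± 16.2 and the aspartate/glutamate carrier Slc25a12 with 173 ± 12.2. The carnitine/acylcarnitine carrier Slc25a20, which brings fatty acyl groups into the matrix, averaged 59.96 ± 7.65 TPM, and Slc25a5, the ADP/ATP carrier of dividing cells (chromosome X, 36795651 to 36798807, plus strand), 45.4 ± 7.90. Neighbours in this order overlapped for Slc25a11 and Slc25a3 (311 to 447 and 266 to 322 TPM) and for Slc25a20 and Slc25a5 (45.4 to 76.5 and 34.8 to 64.8), but not for Slc25a3 and Slc25a12 (149 to 201). These 6 genes held 91.8% of the family's TPM. The other 31 tested members averaged between 37.5 ± 3.85 TPM for Slc25a39 and 1.04 ± 0.145 TPM for Slc25a40, a pair of carriers linked to glutathione import.

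The 10 members under the limit were Slc25a13, Slc25a53, Slc25a18, Slc25a2, Slc25a43, Slc25a48, Slc25a31, Slc25a41, Slc25a21 and Slc25a54. Slc25a13, the aspartate/glutamate carrier best known from liver, was the highest of them, with 0.268 to 1.18 TPM over the 62 libraries. Slc25a54 was listed at 0 in 62 of 62 libraries. Slc25a31, the ADP/ATP carrier of the male germ line, was listed at 0 in 24 and reached at most 0.309 TPM.

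Members of the family differed between CAC and Con muscle at 4, 6 and 8 weeks, in both directions. At 2 weeks limma called 0 of 37, with 4 at an unadjusted p below 0.05, and called 0.283% of all genes. The count at 2 weeks was also 0 with each of the other fits tried. At 4 weeks 2 members were higher in CAC and 5 lower, where 23.0% of all genes were higher and 2.38% lower. At 6 weeks 13 were higher and 8 lower (all genes: 51.8% and 5.41%), and at 8 weeks 14 and 7 (all genes: 65.3% and 5.55%). At each of these 3 weeks the share of the 37 that rose was below that of all genes and the share that fell above it, which was counted and not tested.

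Against NCAC, 0 members were called at 2 weeks, with 3 at an unadjusted p below 0.05 and 1.17% of all genes called, and 0 with each of the other fits. At 4 weeks 0 were higher in CAC and 6 lower (all genes: 18.1% and 1.59%). At 6 weeks 12 were higher and 5 lower (all genes: 64.1% and 4.64%), and at 8 weeks 16 and 6 (all genes: 67.5% and 4.8%). Both comparisons use the same CAC libraries and so are not independent. At 8 weeks 13 members were called higher and 6 lower in both. Those drawn in the heat map have a dot on a cell of the same colour in the last column of either side.

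**Figure D1:**
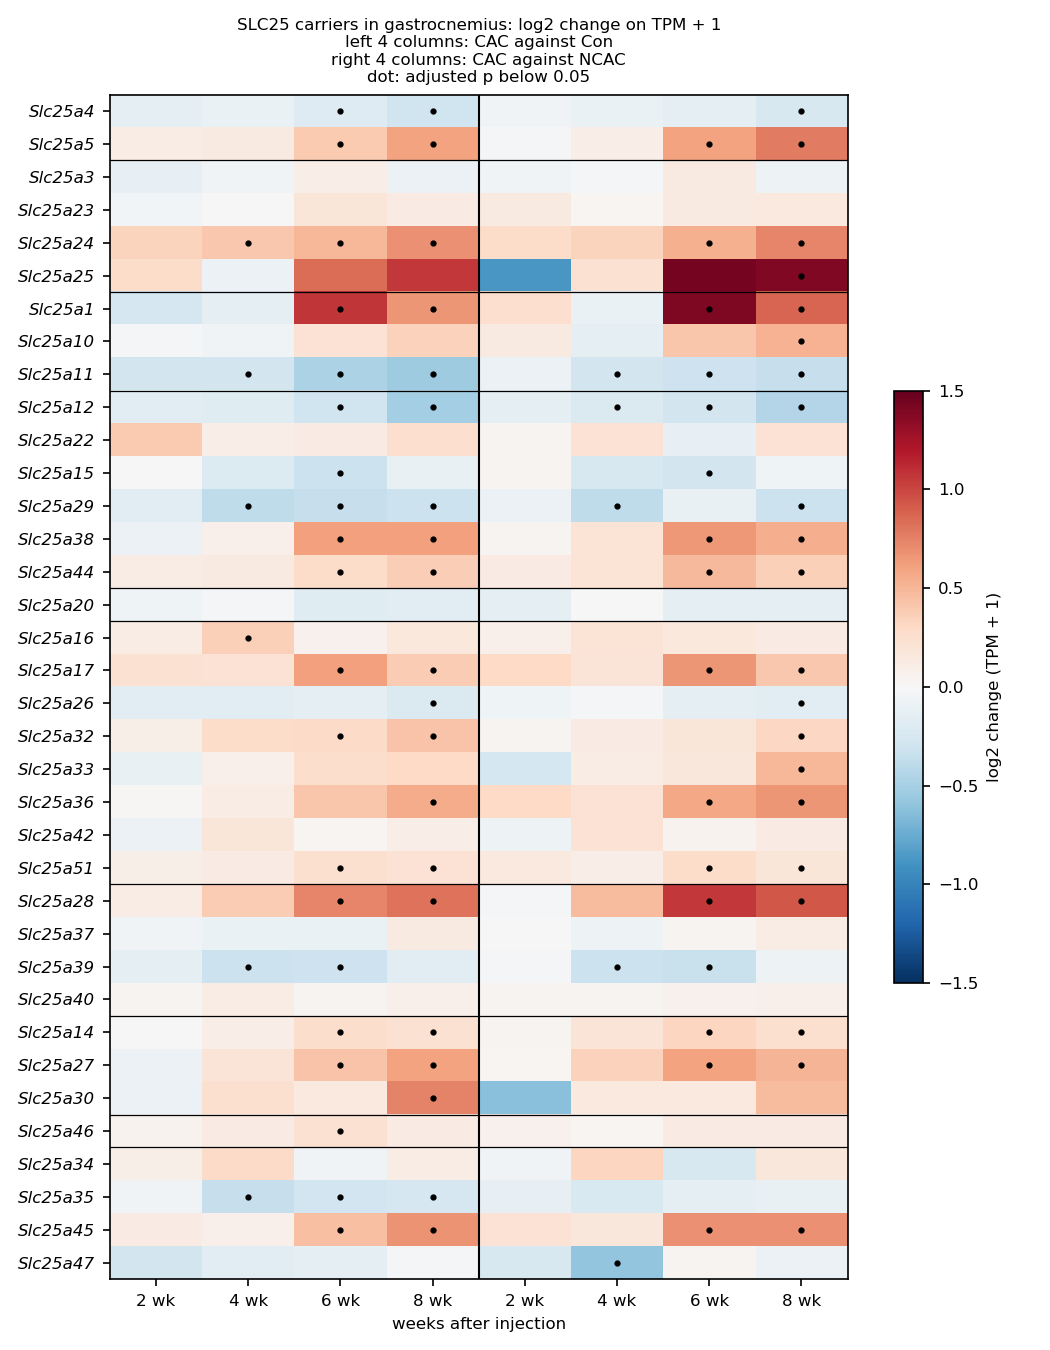
Log2 difference on TPM + 1 of 36 of the 37 tested SLC25 members, grouped by substrate, at 2, 4, 6 and 8 weeks, CAC against Con in the left 4 columns and CAC against NCAC in the right 4. Red is higher in CAC, blue is lower and a dot marks an adjusted p below 0.05. No dot stands at 2 weeks, and at 8 weeks 20 members carry one on the left and 21 on the right.

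The balance of rises and falls depended on the scale. After median-ratio scaling 0 members were higher in CAC than in Con and 10 lower at 4 weeks (all genes: 7.43% and 7.8%), 4 and 13 at 6 weeks (14.4% and 17.2%), and 3 and 14 at 8 weeks (22.9% and 22.3%). Against NCAC the numbers were 0 and 8 at 4 weeks (2.97% and 5.12%), 3 and 16 at 6 weeks (19.7% and 21.7%), and 4 and 15 at 8 weeks (22.6% and 22.4%). The median log2 difference of the 37 members from Con at 8 weeks was 0.16 on the deposited scale and -0.18 after scaling. That of the 77 nuclear subunits of oxidative phosphorylation was -0.26 on the deposited scale (5 higher, 60 lower) and -0.68 after scaling (1 higher, 72 lower). That of the 77 mitochondrial ribosomal proteins was 0.05 on the deposited scale (19 higher, 12 lower) and -0.36 after scaling (0 higher, 58 lower).

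**Figure D2:**
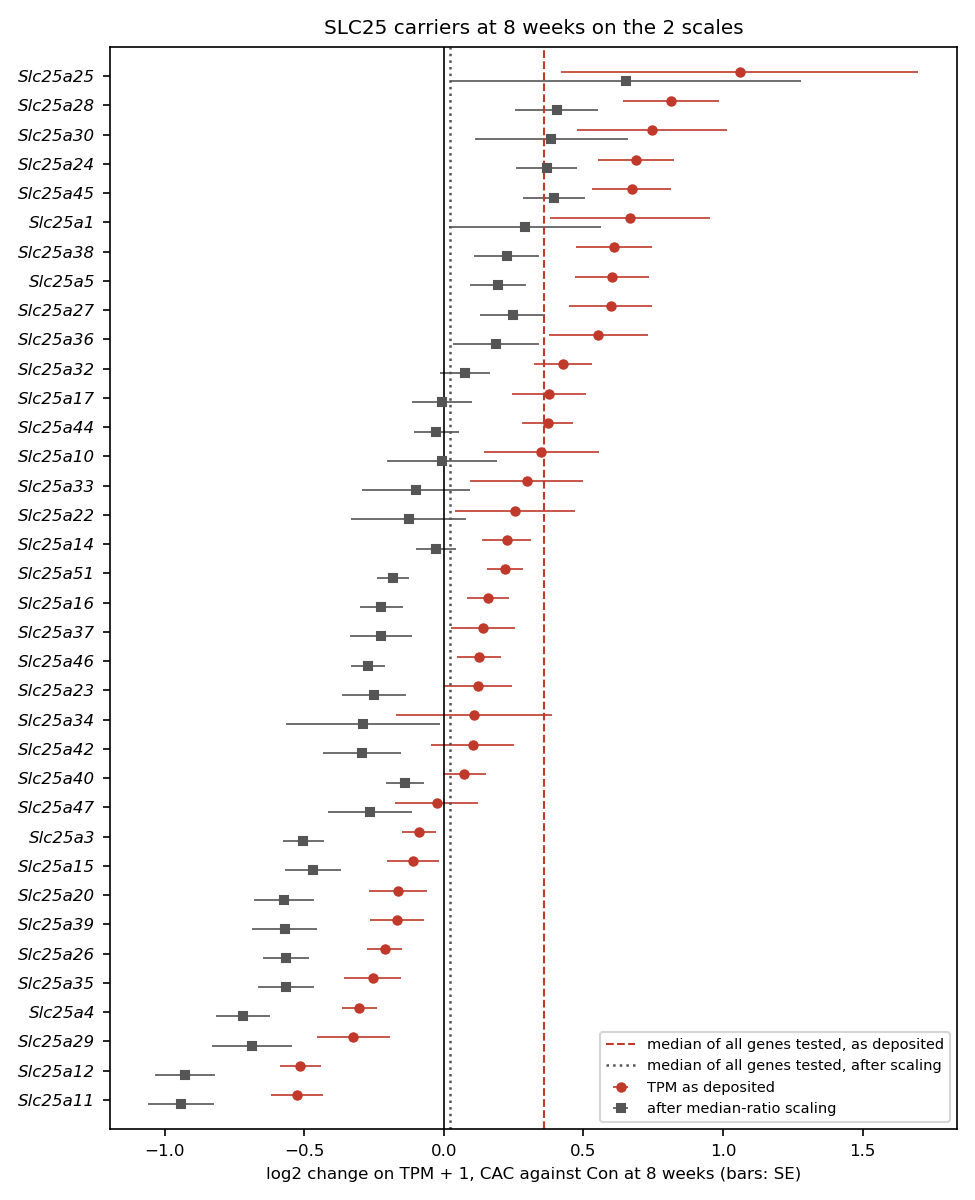
Log2 difference on TPM + 1, CAC against Con at 8 weeks, of 36 of the 37 tested members on the deposited TPM and after median-ratio scaling, with bars for the SE. Vertical lines mark 0 and the median of all tested genes. Slc25a11, Slc25a12 and Slc25a4 lie below 0 on both scales, and Slc25a28, Slc25a24 and Slc25a45 lie above 0 on both.

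The summed TPM of the 47 members at 8 weeks was 4188 ± 88.5 in CAC (SD, n = 7), against 4688 ± 298 in NCAC and 4905 ± 219 in Con (SD, n = 5 each). The highest CAC library held 4324 TPM, the lowest NCAC library 4386 and the lowest Con library 4682, so CAC lay below both. Without Slc25a4 the sums were 1305 ± 83.7 TPM in CAC, 1276 ± 88.1 in NCAC and 1349 ± 69.1 in Con, and CAC overlapped both. Per 100 TPM of nuclear oxidative phosphorylation subunits the carriers held 11.5 ± 0.599 TPM in CAC, 11.5 ± 0.458 in NCAC and 11.7 ± 0.405 in Con. These sums were not tested.

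The ADP/ATP carriers moved in opposite directions on the deposited scale. Slc25a4 had 2691 TPM in the lowest, 2883 in the median and 3116 in the highest of the 7 CAC libraries at 8 weeks. It had 3237, 3730, 3248, 3621 and 3224 TPM in NCAC and 3544, 3827, 3400, 3472 and 3538 TPM in Con. Every CAC library lay below every library of the other groups. Slc25a4 fell against Con (-0.30, SE 0.06, adjusted p = 5.88e-05) and against NCAC (-0.24, SE 0.06, adjusted p = 0.000841), with a difference of -0.72 and -0.68 after scaling. Its smaller fall against Con at 6 weeks (-0.20, SE 0.07, adjusted p = 0.0133) was not called without CAC replicate 1 (-0.13) or 2 (-0.16) or without Con replicate 5 (-0.17). Here and below the log2 difference without a library stands in parentheses after it, and where 2 differences are given together, the one from Con stands before the one from NCAC. Against NCAC at 6 weeks it was not called (-0.14, SE 0.07, adjusted p = 0.0625), but was without CAC replicate 3 (-0.18), 4 (-0.17) or 5 (-0.18) or without NCAC replicate 3 (-0.19).

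Slc25a5 had 47.98 TPM in the lowest, 67.6 in the median and 91.3 in the highest of the 7 CAC libraries at 8 weeks. It had 39.1, 38.03, 38.6, 40.6 and 43.5 TPM in NCAC and 49.5, 46.99, 38.1, 41.7 and 52.3 TPM in Con. All CAC libraries lay above NCAC, and only replicate 3 of CAC lay within the range of Con. Slc25a5 rose against Con (0.60, SE 0.13, adjusted p = 0.000106) and against NCAC (0.78, SE 0.13, adjusted p = 2.17e-06). After scaling the difference from Con was 0.19 and no longer called (adjusted p = 0.105), and that from NCAC was 0.35 and called (adjusted p = 0.00306). At 6 weeks the rise against Con (0.40, SE 0.14, adjusted p = 0.0172) was not called without CAC replicate 1 (0.31) or without Con replicate 2 (0.29), nor after scaling (0.07, adjusted p = 0.629). The table also lists a pseudogene of Slc25a5, and reads may have been shared between near-identical copies.

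The ratio of Slc25a4 to Slc25a5 within a library does not depend on its scaling. It was 42.9 ± 12.4 in CAC at 8 weeks (SD, n = 7), against 85.7 ± 8.85 in NCAC and 78.6 ± 8.80 in Con (SD, n = 5 each). The highest CAC library reached 64.9, and the lowest libraries of NCAC and Con had 74.05 and 67.7. The mean log2 ratio at 8 weeks differed from Con (-0.92, SE 0.17, exact permutation p = 0.00252, adjusted 0.0303) and from NCAC (-1.04, SE 0.17, exact permutation p = 0.00252, adjusted 0.0303), where 0.00252 is the smallest p that 7 against 5 libraries allow in this two-sided test, adjusted over 24 tests. At 6 weeks it differed from NCAC (-0.76, SE 0.21, exact permutation p = 0.00794, adjusted 0.0381, the smallest possible p for 5 against 5), and the difference from Con did not pass (-0.60, SE 0.24, exact permutation p = 0.0556, adjusted 0.167). Neither did those at 2 weeks (-0.27 from Con, adjusted exact p = 0.229, and -0.03 from NCAC, 0.951) or at 4 weeks (-0.24 and -0.20, 0.41 and 0.512).

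**Figure D3:**
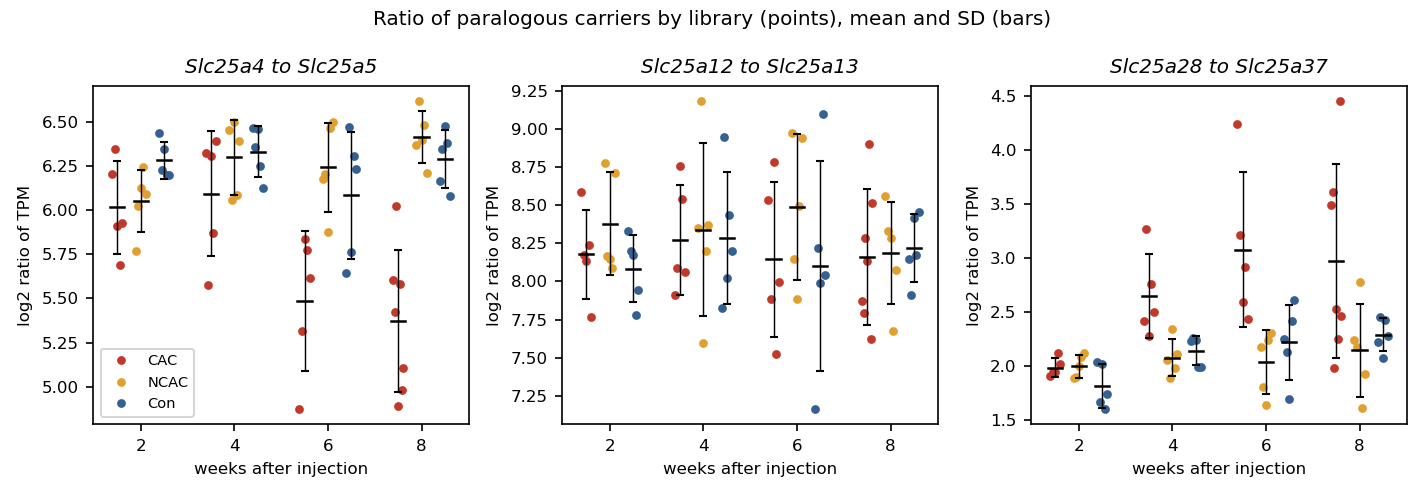
Log2 ratio of TPM within each library for Slc25a4 to Slc25a5, Slc25a12 to Slc25a13 and Slc25a28 to Slc25a37, by weeks after injection. Points are libraries of CAC, NCAC and Con, lines are means and bars are SD. In the first panel the 7 CAC libraries at 8 weeks lie below all NCAC and Con libraries of that week, and in the second the groups overlap at every week.

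Both membrane steps of the malate-aspartate shuttle were lower in CAC. Slc25a11 had 208 TPM in the lowest, 277 in the median and 312 in the highest of the 7 CAC libraries at 8 weeks. It had 317, 360.4, 277, 387 and 360.5 TPM in NCAC and 413, 419.9, 357, 367 and 366 TPM in Con. All CAC libraries lay below Con, and replicates 1, 3 and 4 overlapped NCAC. Slc25a11, the oxoglutarate carrier (chromosome 11, 70644196 to 70647479, minus strand), fell against Con (-0.53, SE 0.09, adjusted p = 5.31e-06) and against NCAC (-0.34, SE 0.09, adjusted p = 0.00115). It was also called lower at 6 weeks against Con (-0.47) and NCAC (-0.31) and at 4 weeks against Con (-0.28, SE 0.10, adjusted p = 0.0374), where the call was lost without CAC replicate 2 (-0.21) or 4 (-0.23) or without Con replicate 1 (-0.22), 2 (-0.28) or 4 (-0.29).

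Slc25a12 had 110.2 TPM in the lowest, 128 in the median and 149 in the highest of the 7 CAC libraries at 8 weeks. It had 173, 172, 153, 194 and 177 TPM in NCAC and 189, 201, 172, 173 and 178 TPM in Con. Every CAC library lay below both other groups. Slc25a12, the aspartate/glutamate carrier of muscle and brain (chromosome 2, 71271063 to 71367749, minus strand), fell against Con (-0.51, SE 0.07, adjusted p = 1.78e-07) and against NCAC (-0.44, SE 0.07, adjusted p = 2.06e-06), and at 6 weeks (-0.30 against Con and -0.28 against NCAC). These calls on Slc25a12 held whichever library was left out and after scaling.

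The ratio of Slc25a12 to its low paralogue Slc25a13 was 298 ± 98.1 in CAC at 8 weeks, 297 ± 64.4 in NCAC and 301 ± 45.5 in Con, and the groups overlapped. Its log2 difference was -0.06 from Con (SE 0.20, exact permutation p = 0.79) and -0.03 from NCAC (SE 0.23, exact permutation p = 0.912). None of the 8 tests of this pair passed. Slc25a13 rested on an estimated median of 42 reads per library, which limits the precision of this ratio. With 1 TPM added to both genes the log2 ratio was -0.37 from Con (exact permutation p = 0.00252) and -0.30 from NCAC (exact permutation p = 0.00758), both unadjusted, a setting under which the low gene hardly counts.

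Of 7 enzymes of the malate-aspartate and glycerol phosphate shuttles, 1 was higher and 4 were lower in CAC than in Con at 8 weeks, and 0 and 6 after scaling. Over all genes 65.3% were higher and 5.55% lower, and 22.9% and 22.3% after scaling, and the counts of the related lists below stand against the same shares. The mitochondrial malate dehydrogenase Mdh2 averaged 601 ± 88.6 TPM in CAC and 888 ± 49.6 in Con (-0.57, adjusted p = 2.67e-08). The cytosolic malate dehydrogenase Mdh1 averaged 345 ± 78.8 TPM in CAC and 528 ± 44.5 in Con (-0.64, adjusted p = 6.1e-06), and the mitochondrial glycerol phosphate dehydrogenase Gpd2 54.2 ± 13.8 TPM in CAC and 84.7 ± 7.39 in Con (-0.67, adjusted p = 7.5e-06). These 3 genes had the lowest p-values of the list, and all fell.

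At 8 weeks the phosphate carrier and the carnitine/acylcarnitine carrier were not called against Con on the deposited TPM of all libraries. Both were called lower after median-ratio scaling, and also when the genes of mitochondrial DNA were left out. Slc25a3 had 246 TPM in the lowest, 260 in the median and 318 in the highest of the 7 CAC libraries at 8 weeks. It had 272, 307, 297, 295 and 277 TPM in NCAC and 302, 318, 284, 286 and 272 TPM in Con. The groups overlapped. The difference of Slc25a3 from Con was not called (-0.09, SE 0.06, adjusted p = 0.172), and after scaling it was -0.50 (adjusted p = 3.99e-07). Against NCAC it was -0.07 and -0.51. At 6 weeks Slc25a3 changed sign with the scale, with 0.09 against Con on the deposited TPM, not called, and -0.23 after scaling.

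Slc25a20 had 40.8 TPM in the lowest, 52.02 in the median and 66.7 in the highest of the 7 CAC libraries at 8 weeks. It had 53.3, 71.8, 47.2, 60.5 and 54.6 TPM in NCAC and 63.2, 62.4, 55.2, 54.8 and 54.9 TPM in Con. Replicates 1 and 2 of CAC lay within the range of Con or above it, and the other 5 below it. The difference of Slc25a20 from Con was not called (-0.17, SE 0.10, adjusted p = 0.145), but was without CAC replicate 1 (-0.23), and after scaling it was -0.57 (adjusted p = 2.87e-05). Of the 4 enzymes that work beside it, Cpt1a, Cpt1b, Cpt2 and Crat, limma called 0 against Con at 8 weeks, with 0 at an unadjusted p below 0.05, and 3 lower after scaling.

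Among the ATP-Mg/phosphate carriers, which are gated by calcium and adjust the adenine nucleotide content of the matrix, Slc25a24 was higher in CAC. Slc25a24 had 2.51 TPM in the lowest, 4.37 in the median and 7.88 in the highest of the 7 CAC libraries at 8 weeks. It had 2.13, 2.01, 1.95, 2.21 and 2.28 TPM in NCAC and 2.92, 2.28, 1.89, 2.10 and 2.02 TPM in Con. All CAC libraries lay above NCAC, and replicate 3 lay within the range of Con. Slc25a24 rose against Con (0.69, SE 0.14, adjusted p = 2.38e-05) and against NCAC (0.74, SE 0.14, adjusted p = 8.14e-06), and after scaling the differences were 0.37 and 0.40, both called. At 6 weeks its calls against Con (0.24 after scaling, adjusted p = 0.11) and NCAC (0.19 after scaling, adjusted p = 0.1895) were lost after scaling. At levels this low the log2 of TPM + 1 understates the change. Slc25a23 was not called at 8 weeks against Con (0.12, SE 0.12, adjusted p = 0.376).

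Slc25a25, a further ATP-Mg/phosphate carrier, had the widest spread between libraries of a group among the tested members, an SD of 1.13 on the log2 scale against a median of 0.211 over the 37. It is described for that spread, after its values were seen. Slc25a25 had 22 TPM in the lowest, 63.5 in the median and 126 in the highest of the 7 CAC libraries at 8 weeks. It had 50.2, 9.45, 6.70, 22.3 and 67.9 TPM in NCAC and 58.4, 6.52, 29.1, 27.8 and 51.8 TPM in Con. The groups overlapped. The difference from Con was not called (1.06, SE 0.64, adjusted p = 0.133), and that from NCAC was (1.39, SE 0.64, adjusted p = 0.0485) but not after scaling (adjusted p = 0.211). The call for Slc25a25 was lost without CAC replicate 2 (1.30), 4 (1.25), 6 (1.37) or 7 (1.21) or without NCAC replicate 2 (1.10), 3 (0.99) or 4 (1.39).

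**Figure D4:**
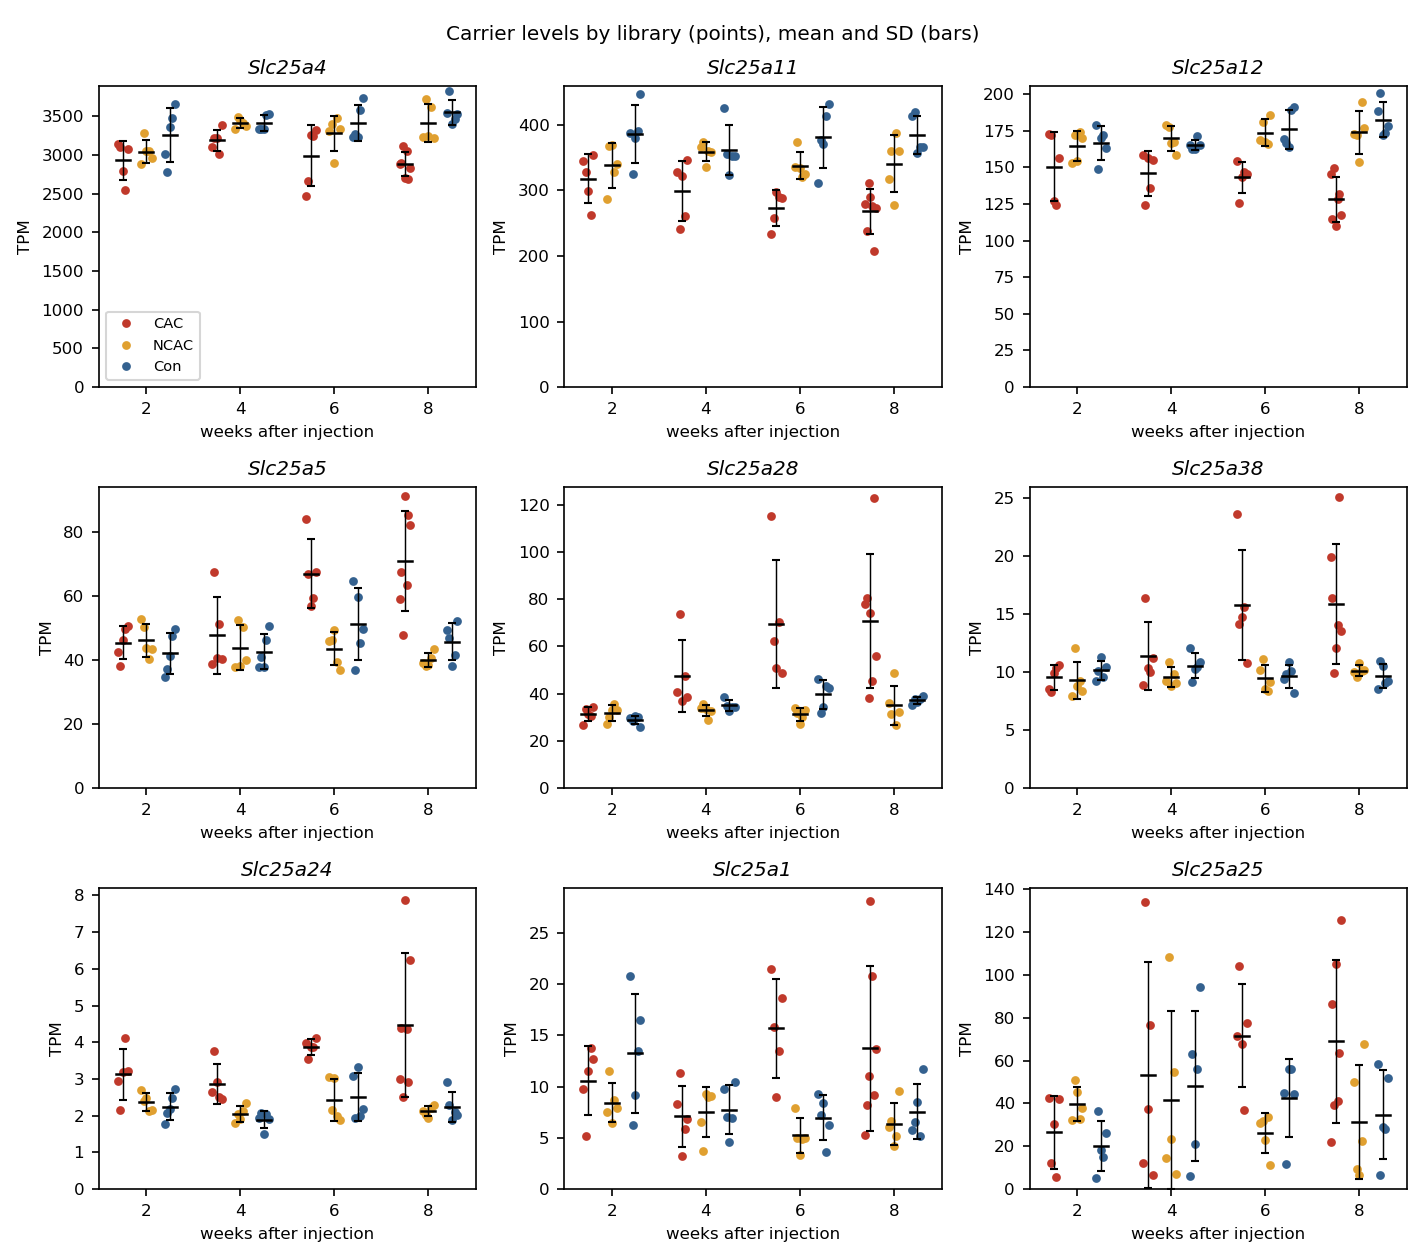
TPM of 9 SLC25 members by weeks after injection, with a linear axis from 0 in each panel. Points are libraries of CAC, NCAC and Con, lines are means and bars are SD. Slc25a4, Slc25a11 and Slc25a12 sit lower in CAC at 8 weeks, and Slc25a25 spreads widely in all groups.

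The citrate carrier Slc25a1, which exports citrate for fatty acid synthesis, was higher in CAC at 6 and 8 weeks. Its level also varied between the weeks in Con, with 13.2 ± 5.77 TPM at 2 weeks (6.23 to 20.8), 6.96 ± 2.20 at 6 and 7.53 ± 2.67 at 8. At 6 weeks it had 21.5, 15.8, 8.98, 13.4 and 18.6 TPM in CAC, 7.95, 5.02, 3.35, 4.84 and 5.02 TPM in NCAC and 9.27, 7.24, 8.43, 3.59 and 6.26 TPM in Con. All CAC libraries lay above NCAC, and all but replicate 3 above Con. Slc25a1 rose at 6 weeks against Con (1.07, SE 0.31, adjusted p = 0.00364) and against NCAC (1.40, SE 0.31, adjusted p = 0.000124), and both differences were called after scaling (0.76 and 1.000).

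Slc25a1 had 5.23 TPM in the lowest, 10.99 in the median and 28.1 in the highest of the 7 CAC libraries at 8 weeks. It had 6.02, 6.68, 4.19, 5.21 and 9.54 TPM in NCAC and 5.72, 6.56, 8.50, 5.14 and 11.7 TPM in Con. At this week CAC overlapped Con in replicates 1, 2, 3 and 6. The rise of Slc25a1 at 8 weeks passed against Con (0.67, SE 0.29, adjusted p = 0.0353) and against NCAC (0.88, SE 0.29, adjusted p = 0.00614), and neither passed after scaling (adjusted p = 0.398 and 0.146). The call against Con was lost without CAC replicate 4 (0.47), 5 (0.54) or 7 (0.64) or without Con replicate 1 (0.59), 2 (0.64) or 4 (0.56). The dicarboxylate carrier Slc25a10 was called against NCAC (0.52, SE 0.21, adjusted p = 0.0219) and not against Con (0.35, SE 0.21, adjusted p = 0.125). After scaling it was called in neither (adjusted p = 0.551 against NCAC and 0.982 against Con). For Slc25a10 the call against NCAC was lost without CAC replicate 4 (0.36), 5 (0.45) or 7 (0.44) or without NCAC replicate 3 (0.36), and a call against Con was gained without CAC replicate 1 (0.49) or 6 (0.48).

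Of the 6 tested amino acid carriers, Slc25a12 included, 2 were higher and 2 lower in CAC than in Con at 8 weeks, and 0 and 3 after scaling. Slc25a38 had 9.93 TPM in the lowest, 14.1 in the median and 25.1 in the highest of the 7 CAC libraries at 8 weeks. It had 9.98, 9.57, 10.8, 10.1 and 10.2 TPM in NCAC and 8.58, 10.996, 10.6, 9.08 and 9.20 TPM in Con. All CAC libraries but replicate 3 lay above the other groups. Slc25a38, which brings glycine into the matrix for heme synthesis, rose against Con (0.61, SE 0.14, adjusted p = 0.000113) and against NCAC (0.55, SE 0.14, adjusted p = 0.000399). After scaling neither difference was called (0.22 and 0.14), while that from Con at 6 weeks was (0.62 on the deposited scale, 0.31 after scaling, adjusted p = 0.0493). The difference from NCAC at 6 weeks was called on the deposited scale and not after scaling (0.23, adjusted p = 0.132).

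The branched-chain amino acid carrier Slc25a44 averaged 28.1 ± 6.57 TPM in CAC at 8 weeks, 21.3 ± 1.96 in NCAC and 21.1 ± 1.16 in Con. It rose against Con (0.37, SE 0.09, adjusted p = 0.000429) and NCAC (0.36, SE 0.09, adjusted p = 0.000677) on the deposited scale, and after scaling the differences were -0.03 and -0.06, neither called. Slc25a29, a carrier of basic amino acids, had 5.45, 7.02 and 12.4 TPM in the lowest, median and highest CAC library, 10.05, 11.99, 8.89, 10.02 and 8.83 TPM in NCAC and 8.23, 11.6, 9.86, 9.85 and 10.2 TPM in Con. The highest library of all was replicate 5 of CAC, and the groups overlapped. Slc25a29 fell against Con (-0.33, SE 0.13, adjusted p = 0.0236), a call lost without CAC replicate 2 (-0.25) or 4 (-0.28) or without Con replicate 2 (-0.27). It fell against NCAC (-0.33, SE 0.13, adjusted p = 0.0221), a call lost without CAC replicate 2 (-0.26) or 4 (-0.29) or without NCAC replicate 2 (-0.26).

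The ornithine carrier Slc25a15 was called lower against Con at 6 weeks (-0.32, SE 0.10, adjusted p = 0.00664) and not at 8 weeks (-0.11, SE 0.09, adjusted p = 0.284), where it was after scaling (-0.47). The glutamate carrier Slc25a22 was not called in any comparison of CAC, with 13.03 ± 2.88 TPM in CAC at 8 weeks, 11.01 ± 2.37 in NCAC and 10.6 ± 1.64 in Con.

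Of the 9 cofactor and nucleotide carriers, 4 were higher and 2 lower at 8 weeks against Con, and 0 and 4 after scaling. Slc25a26 had 5.21 TPM in the lowest, 6.38 in the median and 7.17 in the highest of the 7 CAC libraries at 8 weeks. It had 6.76, 7.03, 6.87, 7.93 and 7.73 TPM in NCAC and 8.02, 7.53, 7.33, 7.43 and 7.13 TPM in Con. Replicate 1 of CAC overlapped Con, and replicates 1 and 3 overlapped NCAC. Slc25a26, which imports S-adenosylmethionine for methylation in the matrix, fell against Con (-0.21, SE 0.06, adjusted p = 0.0027). Its fall against NCAC (-0.17, SE 0.06, adjusted p = 0.0132) was lost without CAC replicate 6 (-0.13) or without NCAC replicate 4 (-0.14).

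Slc25a36 had 5.10 TPM in the lowest, 9.72 in the median and 12.4 in the highest of the 7 CAC libraries at 8 weeks. It had 5.98, 4.87, 4.55, 4.88 and 5.64 TPM in NCAC and 7.17, 7.28, 5.14, 4.89 and 4.32 TPM in Con. Replicates 2 and 3 of CAC lay within the range of Con, replicate 3 within that of NCAC, and the others above. Slc25a36, a pyrimidine nucleotide carrier with the CREB and STAT elements in its promoter window, rose against Con (0.55, SE 0.18, adjusted p = 0.00503) and against NCAC (0.66, SE 0.18, adjusted p = 0.00091), and neither difference was called after scaling (0.19 and 0.28). Its paralogue Slc25a33 had 12.2, 20.7 and 52.3 TPM in the lowest, median and highest CAC library, with replicates 1 and 6 above all Con and NCAC libraries. It was called against NCAC (0.50, SE 0.20, adjusted p = 0.0245) and not against Con (0.30, SE 0.20, adjusted p = 0.186). After scaling it differed by 0.09 from NCAC and by -0.10 from Con, neither called. The call of Slc25a33 against NCAC was lost without CAC replicate 1 (0.34) or 6 (0.31) or without NCAC replicate 3 (0.39), and one against Con was gained without CAC replicate 5 (0.44).

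Slc25a32, a folate or FAD carrier, rose against Con (0.43, SE 0.11, adjusted p = 0.000427) and against NCAC (0.31, SE 0.11, adjusted p = 0.00894), the second a call lost without NCAC replicate 2 (0.23). The peroxisomal carrier Slc25a17 rose against Con (0.38, SE 0.13, adjusted p = 0.0107) and NCAC (0.40, SE 0.13, adjusted p = 0.00662). Neither Slc25a32 nor Slc25a17 was called after scaling, where Slc25a32 was 0.08 and -0.07 and Slc25a17 -0.01 and -0.00344.

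The NAD carrier Slc25a51 changed direction with the scale. It averaged 29.9 ± 3.48 TPM in CAC at 8 weeks, 26.2 ± 2.43 in NCAC and 25.5 ± 1.60 in Con, a rise against Con (0.22, SE 0.06, adjusted p = 0.00232) and NCAC (0.18, SE 0.06, adjusted p = 0.00941) on the deposited TPM and differences of -0.18 and -0.24, both called, after scaling. Slc25a16 and Slc25a42 are linked to coenzyme A. Slc25a16 was not called at 8 weeks against Con (0.16, SE 0.08, adjusted p = 0.0612), was called higher without CAC replicate 1 (0.17), 3 (0.20) or 5 (0.17), and was called lower after scaling (-0.22). Against NCAC Slc25a16 (0.13) was called higher without CAC replicate 3 (0.17) and lower after scaling (-0.27), and Slc25a42 (0.13) was called higher without CAC replicate 5 (0.28). At 4 weeks Slc25a16 rose against Con (0.36, SE 0.08, adjusted p = 0.00171), but not after scaling.

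Of the iron and glutathione carriers 1 of 4 was called against Con at 8 weeks on the deposited scale, mitoferrin 2, Slc25a28, which imports iron (chromosome 19, 43663801 to 43674881, minus strand). Slc25a28 had 38.1 TPM in the lowest, 74.2 in the median and 123 in the highest of the 7 CAC libraries at 8 weeks. It had 35.997, 31.2, 48.8, 26.9 and 32.1 TPM in NCAC and 35.3, 37.5, 36.5, 37.8 and 39.1 TPM in Con. All CAC libraries but replicate 3 lay above Con, and all but replicates 3 and 5 above NCAC. Slc25a28 rose against Con (0.81, SE 0.17, adjusted p = 5.38e-05) and against NCAC (0.93, SE 0.17, adjusted p = 7.68e-06), and after scaling the differences were 0.40 and 0.50, both called. It was also higher at 6 weeks (0.73 against Con and 1.06 against NCAC), when it had 115, 62.3, 50.7, 70.2 and 48.6 TPM in CAC, 33.7, 31.7, 27.3, 30.1 and 33.1 TPM in NCAC and 46.2, 31.98, 34.5, 43.1 and 42.6 TPM in Con, without overlap. These calls on Slc25a28 held whichever library was left out.

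Mitoferrin 1, Slc25a37, the iron importer of developing red cells, was not called in any comparison of CAC on the deposited scale, with 5.62, 9.54 and 12.8 TPM in the lowest, median and highest CAC library at 8 weeks, 7.60, 6.90, 7.13, 8.80 and 8.45 TPM in NCAC and 7.53, 6.83, 8.65, 7.05 and 8.07 TPM in Con. After scaling Slc25a37 was called lower against NCAC at 8 weeks (-0.27), with -0.23 against Con (adjusted p = 0.0909). The ratio of Slc25a28 to Slc25a37 was 9.33 ± 6.40 in CAC at 8 weeks, 4.59 ± 1.42 in NCAC and 4.92 ± 0.516 in Con, and the groups overlapped. The log2 ratio passed at 4 weeks against Con (0.50, SE 0.18, exact permutation p = 0.00794, adjusted 0.0381) and at 6 weeks against NCAC (1.04, SE 0.34, exact permutation p = 0.00794, adjusted 0.0381). At 4 weeks the ratio against NCAC did not pass after adjustment (0.57, SE 0.19, exact permutation p = 0.0159, adjusted 0.0635). It did not pass after adjustment at 6 weeks against Con (0.86, SE 0.35, exact permutation p = 0.0318, adjusted 0.109), nor at 8 weeks against Con (0.68, SE 0.35, exact permutation p = 0.144, adjusted 0.288) or NCAC (0.82, SE 0.39, exact permutation p = 0.0758, adjusted 0.202).

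Slc25a39 was called lower against Con at 4 weeks (-0.32, SE 0.10, adjusted p = 0.0222), lost without CAC replicate 2 (-0.25) or without Con replicate 1 (-0.27), and at 6 weeks (-0.31, SE 0.10, adjusted p = 0.0115), lost without CAC replicate 4 (-0.24) or without Con replicate 5 (-0.25). At 8 weeks it was not called (-0.17, SE 0.10, adjusted p = 0.115), but was without CAC replicate 3 (-0.22) and after scaling (-0.57). Slc25a40 was not called in any comparison of CAC.

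Of 12 genes of heme and iron-sulphur synthesis 3 were higher and 1 lower in CAC than in Con at 8 weeks, and 0 and 9 after scaling. Alas1, the first enzyme of heme synthesis outside red cells, averaged 38.1 ± 8.89 TPM in CAC and 60.1 ± 6.74 in Con (-0.67, adjusted p = 1.36e-06). Ppox, a late enzyme of that pathway, averaged 5.97 ± 1.64 TPM in CAC and 3.90 ± 0.415 in Con (0.48, adjusted p = 0.00135), and the iron-sulphur scaffold Iscu 113 ± 10.97 TPM in CAC and 99.8 ± 4.08 in Con (0.17, adjusted p = 0.0332). After scaling Ppox was not called (0.13) and Iscu was lower (-0.24).

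The 3 members likened to uncoupling proteins were called higher at 8 weeks against Con on the deposited scale. Slc25a27 had 3.58 TPM in the lowest, 6.05 in the median and 11.5 in the highest of the 7 CAC libraries at 8 weeks. It had 3.52, 3.40, 5.36, 4.33 and 4.30 TPM in NCAC and 3.78, 4.01, 4.10, 3.9968 and 3.35 TPM in Con. All CAC libraries but replicate 3 lay above Con, and all but 3 and 5 above NCAC. Slc25a27, known best from neurons, rose against Con (0.60, SE 0.15, adjusted p = 0.00045) and against NCAC (0.51, SE 0.15, adjusted p = 0.00211). After scaling 0 of the 3 were called, and the differences of Slc25a27 were 0.25 and 0.14.

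Slc25a30 averaged 8.03 ± 0.713 TPM in CAC at 8 weeks, 5.85 ± 2.38 in NCAC and 4.58 ± 1.74 in Con, with CAC above Con without overlap. Its rise against Con (0.74, SE 0.27, adjusted p = 0.0127) was not called after scaling (0.38) and was lost without Con replicate 2 (0.62). Against NCAC it was not called (0.48, SE 0.27, adjusted p = 0.106), but was without NCAC replicate 4 (0.63). Slc25a14 rose against Con (0.23, SE 0.09, adjusted p = 0.0203), a call lost without CAC replicate 2 (0.19) or 4 (0.15) or without Con replicate 4 (0.21), and against NCAC (0.24, SE 0.09, adjusted p = 0.0128), lost without CAC replicate 4 (0.17). After scaling Slc25a14 was at -0.03 and -0.02.

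Among members without an agreed substrate, Slc25a45 was higher in CAC. Slc25a45 had 1.70 TPM in the lowest, 2.21 in the median and 4.57 in the highest of the 7 CAC libraries at 8 weeks. It had 1.24, 1.203, 0.900, 1.32 and 1.48 TPM in NCAC and 1.60, 1.40, 1.27, 0.734 and 1.29 TPM in Con. All 7 CAC libraries lay above both other groups, although the gene was the lowest tested member but Slc25a40 in Con. Slc25a45 rose against Con (0.67, SE 0.14, adjusted p = 5.43e-05) and against NCAC (0.68, SE 0.14, adjusted p = 4.11e-05), and after scaling the differences were 0.39 and 0.39, both called. At 6 weeks its call against Con was lost after scaling (0.24, adjusted p = 0.129). Slc25a35 was called lower against Con (-0.26, SE 0.10, adjusted p = 0.0251), and was still called lower after scaling (-0.57). On the deposited scale the call was lost without CAC replicate 1 (-0.20) or 6 (-0.20) or without Con replicate 5 (-0.21). Slc25a34 and Slc25a47 were not called at 8 weeks (0.11 and -0.03 against Con).

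Slc25a46, an outer membrane protein linked to mitochondrial shape, changed direction with the scale. At 8 weeks it was not called against Con on the deposited TPM (0.13, SE 0.08, adjusted p = 0.142), was called higher without CAC replicate 3 (0.17) or 5 (0.17), and was called lower after scaling (-0.27, adjusted p = 0.000343).

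Of the tested members, 2 were higher (Slc25a30 and Slc25a45) and 3 lower (Slc25a4, Slc25a11 and Slc25a12) in every CAC library than in every Con library at 8 weeks, where 25.7% of all genes were higher and 1.25% lower without overlap. Against NCAC 3 were higher (Slc25a5, Slc25a24 and Slc25a45) and 2 lower (Slc25a4 and Slc25a12), beside 24.5% and 0.493% of all genes.

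At 8 weeks 15 of the 21 calls against Con and 14 of the 22 against NCAC held whichever library was left out. At 6 weeks 10 of 21 and 14 of 17 did, and the count against Con was 13 without CAC replicate 1. At 4 weeks 2 of 7 and 0 of 6 did. The count at 4 weeks against Con was 2 without CAC replicate 2, 4 without CAC replicate 4, 3 without Con replicate 1 and 4 without Con replicate 5. Against NCAC it was 0 without CAC replicate 2, 3 without NCAC replicate 1, 2 without NCAC replicate 5, and 1 without CAC replicate 4 or NCAC replicate 2, 3 or 4.

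The calls at 4 weeks were the first in time. Against Con, Slc25a16 and Slc25a24 (0.41, SE 0.15, adjusted p = 0.0357) were higher, and those lower included Slc25a11, Slc25a29 (-0.38, SE 0.14, adjusted p = 0.04), Slc25a35 (-0.35, SE 0.11, adjusted p = 0.0205) and Slc25a39. Those lower against NCAC included Slc25a11 (-0.27, SE 0.10, adjusted p = 0.0487), Slc25a12 (-0.22, SE 0.08, adjusted p = 0.0465), Slc25a29 (-0.38, SE 0.14, adjusted p = 0.0495), Slc25a39 (-0.32, SE 0.10, adjusted p = 0.0321) and Slc25a47 (-0.59, SE 0.16, adjusted p = 0.0131). Slc25a24 was not called after scaling at this week (0.27).

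Replicate 3 of CAC at 8 weeks lay nearest to Con in many members. It was the lowest of the 7 CAC libraries in 10 of the 14 members called higher and the highest in 4 of the 7 called lower. It also stood apart in erythroid RNA: its 8 erythroid markers summed to 17989 TPM, against 182 to 1842 in the other 6 CAC libraries, 724 to 1384 in NCAC and 633 to 1735 in Con. Without replicate 3 of CAC, 16 members were higher and 8 lower against Con, and 17 and 6 against NCAC. The shares of all genes in that fit are not given here, so these counts show nothing particular to the members. The part of erythroid RNA in the values of replicate 3 was not tested.

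Markers of other cells were counted in the same comparison. 11 of 11 macrophage, 6 of 9 adipocyte, 6 of 7 endothelial and 3 of 7 fibro-adipogenic markers were higher in CAC than in Con at 8 weeks, and 1 endothelial marker was lower. After scaling 9, 5, 4 and 3 of them were still called higher. The share of all genes called higher was 65.3% and after scaling 22.9%, so the adipocyte count on the deposited scale lay near that share and the fibro-adipogenic count below it. The macrophage markers summed to 284 to 881 TPM in CAC, 45.3 to 179.8 in NCAC and 89.4 to 321 in Con. The adipocyte markers summed to 1357 to 3354 TPM in CAC, 774 to 1400 in NCAC and 779.5 to 1847 in Con, the endothelial ones to 133 to 219 in CAC, 79.8 to 113 in NCAC and 76.5 to 117 in Con, and the fibro-adipogenic ones to 640.3 to 1455 in CAC, 293 to 684 in NCAC and 393 to 586 in Con. No listed marker was at 0 in all 62 libraries. Of the other lists 4 of 8 slow fibre markers were higher, 3 of 12 fast fibre markers were higher and 4 lower, and 1 of 2 tested melanocyte markers was higher. Of the 6 tested erythroid markers limma called 0, with 1 at an unadjusted p below 0.05 and 1 called after scaling. Replicate 4 of CAC had the highest macrophage, adipocyte, endothelial and fibro-adipogenic sums of the 7 CAC libraries and was the highest of the 7 CAC libraries in 5 of the 14 members called higher, Slc25a1, Slc25a5, Slc25a14, Slc25a24 and Slc25a45. Replicate 6 was the highest in 7 of the 14 and the lowest in 4 of the 7 called lower, with sums of 284 TPM for macrophage, 2880 for adipocyte, 176 for endothelial and 814 for fibro-adipogenic markers. The part of these cells in the levels of the carriers was not tested.

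Of the 4 tested members of the protein family under other symbols, 3 were higher at 8 weeks against Con. Ucp2, an uncoupling protein abundant in immune cells, averaged 15.5 ± 5.71 TPM in CAC, 5.08 ± 1.49 in NCAC and 5.48 ± 1.05 in Con (1.29 against Con, adjusted p = 3.47e-06, and 0.91 after scaling, also called). Mtch1 and Mtch2, of the outer membrane, differed by 0.46 and 0.37, and by 0.05 and -0.03 after scaling, when neither was called. Ucp3, the uncoupling protein of muscle, was not called, with 80.8 ± 29.3 TPM in CAC, 70.7 ± 11.8 in NCAC and 69.7 ± 12.7 in Con.

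Of 20 other genes of mitochondrial membrane transport 7 were higher and 4 lower at 8 weeks against Con, beside 65.3% and 5.55% of all genes, and 3 and 10 after scaling, beside 22.9% and 22.3%. The calcium uniporter Mcu averaged 16.7 ± 4.12 TPM in CAC and 10.3 ± 0.982 in Con (0.62, adjusted p = 2.11e-06). The outer membrane protein Tspo averaged 102 ± 38.7 TPM in CAC and 48.3 ± 5.69 in Con (0.98, adjusted p = 2.2e-06). After scaling Tspo was called (0.57) and Mcu (0.23) was not.

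In the phosphocreatine shuttle, which takes over the phosphate of the ATP that Slc25a4 exports, 1 of 4 tested genes was higher and 1 lower. The lower one, the mitochondrial creatine kinase Ckmt2, averaged 888 ± 336 TPM in CAC and 1694 ± 193 in Con (-1.001, adjusted p = 4.18e-06), and the higher one, the creatine transporter Slc6a8, 60.04 ± 8.71 TPM in CAC and 48.1 ± 7.23 in Con (0.32, adjusted p = 0.0128). After scaling 0 were higher and 2 lower.

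An F test over the 4 weeks asked whether the gap between CAC and Con varied with time. It called 1 of the 37 members, Slc25a38 (adjusted p = 0.0197), with 7 at an unadjusted p below 0.05, and 12.1% of all genes. The log2 difference of Slc25a38 from Con was -0.08 at 2 weeks, 0.07 at 4, 0.62 at 6 and 0.61 at 8. After scaling the adjusted p of Slc25a38 was 0.126, and Slc25a12 (0.0226) and Slc25a16 (0.0335) were called in its place. The number called was 7 without CAC 4-week replicate 2 or CAC 8-week replicate 3, 4 without CAC 2-week replicate 4, 3 without CAC 8-week replicate 1, and 2 without CAC 2-week replicate 3, Con 2-week replicate 1 or 2, Con 4-week replicate 3, or CAC 6-week replicate 2, 3 or 5. For the other 36 members a call at 8 weeks and none at 2 weeks does not show a change over time.

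In NCAC muscle limma called 0 of the 37 members against Con at each of the 4 weeks and 0 in the F test, and 0.0% of all genes. At an unadjusted p below 0.05 there were 0, 2, 1 and 0 members by week: Slc25a26 (-0.14) and Slc25a47 (0.43) at 4 weeks and Slc25a44 (-0.21) at 6 weeks. The F test had 0 at that level. The other fits, with another pseudocount, filter or scaling, also called 0 at each week.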

How the data were processed

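Polyadenylated RNA of gastrocnemius was sequenced on a NovaSeq 6000 from a stranded library, per the labels' protocols. The authors deposited TPM per gene symbol for 62 libraries. The genome build was mm10, per the submitters' processing notes, and aligner, read counter and gene models were not given in the sources used here. TPM keeps no depth, so reads per library were estimated from TPM and GENCODE M21 exon lengths.

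Genes with at least 1 TPM in at least 5 libraries were fitted on log2(TPM + 1), which understates changes of low genes, with limma 3.58.1 in R 4.3.3. The fit had 12 group means and a variance trend. Tests were two-sided, with Benjamini-Hochberg adjustment over 12364 genes and a threshold of 0.05. Paralogue ratios were compared by exact permutation tests over libraries. P-values measure the spread between these libraries, which the labels call biological replicates. The steps were tested on simulated data.

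Groups came from the sample descriptions, since the treatment tag named cachectic cells for every library. Full values were planned for the 6 most abundant members and the paralogue pairs. They were also planned for the 8 largest rises and 8 largest falls called against both Con and NCAC at 8 weeks. Only 6 members were called lower in both, and the levels of Slc25a13 are given only as a range. From each related list up to 3 called genes of lowest p were named. Single values of some genes are not reported here, but all tested genes enter the counts. The members and lists were chosen with earlier results of these data known. Same-numbered libraries did not deviate together: 16 of 60 pairs correlated above 0.1 (-0.299 to 0.295), and in 0 comparisons all did. The alternatives tried were another pseudocount, other filters, median-ratio scaling, leaving out the genes of mitochondrial DNA, array weights, fits of the compared groups alone, a replicate block and leaving out each library.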

Additional observations from a re-analysis of the deposited data

Results flagged for a closer look

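In 10 of 216 groups of libraries 1 library lay far from the other libraries of its group by Dixon's criterion, which chance alone meets in about 1 in 20 groups. Among carriers of high level these were Slc25a4 in NCAC replicate 3 at 6 weeks, the lowest, with 2898 TPM against 3314 in the next library; Slc25a11 in NCAC replicate 2 at 6 weeks, the highest, with 373 TPM against 336 in the next library; Slc25a20 in Con replicate 1 at 6 weeks, the lowest, with 55.2 TPM against 65.7 in the next library. Another was Slc25a28 in CAC replicate 2 at 4 weeks, the highest, with 73.5 TPM against 47.3 in the next library. Low members gave Slc25a24 in Con replicate 3 at 4 weeks, the lowest, with 1.503 TPM against 1.91 in the next library, and Slc25a36 in NCAC replicate 2 at 2 weeks, the highest, with 7.07 TPM against 4.95 in the next library. They also gave Slc25a36 in Con replicate 3 at 4 weeks, the lowest, with 4.39 TPM against 6.35 in the next library, and Slc25a29 in NCAC replicate 2 at 2 weeks, the highest, with 13.3 TPM against 9.20 in the next library. The remaining libraries were Slc25a29 in CAC replicate 5 at 4 weeks, the highest, with 11.3 TPM against 7.84 in the next library, and Slc25a25 in Con replicate 2 at 6 weeks, the lowest, with 11.6 TPM against 44.2 in the next library. No library gave more than 2 of these values. The gap of Slc25a38 between CAC and Con differed between the 4 weeks, with an adjusted limma p of 0.0197, and the same test after scaling gave an adjusted p of 0.126.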

How the results depend on the processing

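Of the settings that kept all libraries, median-ratio scaling moved the most member differences: 30 lost the call, 24 gained one and 25 were reversed. The other 365 kept their side of the threshold, among them uncalled differences whose sign turned. After median-ratio scaling the sign turned for Slc25a3 at -0.23 (against Con, 6 weeks) and -0.31 (against NCAC, 6 weeks), Slc25a37 at -0.35 (against NCAC, 6 weeks) and -0.27 (against NCAC, 8 weeks), Slc25a14 at -0.0288 (against Con, 8 weeks) and -0.0246 (against NCAC, 8 weeks). It also turned for Slc25a16 at -0.24 (against Con, 6 weeks) and -0.22 (against Con, 8 weeks) and -0.25 (against NCAC, 6 weeks) and -0.27 (against NCAC, 8 weeks), Slc25a17 at -0.00816 (against Con, 8 weeks) and -0.00344 (against NCAC, 8 weeks), Slc25a32 at -0.0653 (against NCAC, 8 weeks). Further reversals were Slc25a42 at -0.37 (against NCAC, 6 weeks), Slc25a44 at -0.0444 (against Con, 6 weeks) and -0.0274 (against Con, 8 weeks) and -0.0645 (against NCAC, 8 weeks), Slc25a46 at -0.0914 (against Con, 6 weeks) and -0.27 (against Con, 8 weeks) and -0.30 (against NCAC, 6 weeks) and -0.30 (against NCAC, 8 weeks). The last were Slc25a51 at -0.0745 (against Con, 6 weeks) and -0.18 (against Con, 8 weeks) and -0.15 (against NCAC, 6 weeks) and -0.24 (against NCAC, 8 weeks). The cause of these reversals was not tested beyond the shift of the all-gene median given above. Leaving out the genes of mitochondrial DNA cost 25 calls and gave 15. At 8 weeks 19 members were then called against Con and 18 against NCAC. Calls lost against Con at 8 weeks were Slc25a1 (0.51), Slc25a36 (0.40), Slc25a14 (0.12), Slc25a17 (0.21), Slc25a30 (0.61) and Slc25a51 (0.0361), and calls gained were Slc25a3 (-0.28), Slc25a20 (-0.35), Slc25a15 (-0.29) and Slc25a39 (-0.36). Those lost against NCAC were Slc25a10 (0.40), Slc25a14 (0.16), Slc25a17 (0.26), Slc25a25 (1.24), Slc25a32 (0.17), Slc25a33 (0.35) and Slc25a51 (0.0268), and those gained Slc25a3 (-0.24), Slc25a20 (-0.30) and Slc25a39 (-0.23). Without the filter on low values 4 members were called against Con at 4 weeks and 1 against NCAC. With only the compared groups fitted, which leaves fewer libraries, 2 were called against Con at 4 weeks, 0 against NCAC at 4 weeks, 14 against NCAC at 8 weeks and 0 for change between weeks. The number for change between weeks was 2 with a filter at 5 TPM, 2 after scaling and 11 with array weights. Leaving out 1 library gave 2 to 9 calls against Con and 0 to 9 against NCAC at 4 weeks, 13 to 21 against Con at 6 weeks and 1 to 7 for change between weeks. The log2 ratio of Slc25a12 to Slc25a13 with 1 TPM added to both was -0.37 against Con at 8 weeks, and -0.30 and -0.30 against NCAC at 6 and 8 weeks, each then with an exact permutation p below 0.05 before adjustment. That of Slc25a4 to Slc25a5 against Con ranged over the left-out libraries from -0.35 to -0.18 at 2 weeks and from -0.71 to -0.45 at 6 weeks, and that of Slc25a28 to Slc25a37 from 0.57 to 1.02 at 6 weeks and from 0.43 to 0.84 at 8 weeks. Against NCAC at 8 weeks the last ratio ranged from 0.58 to 0.99. With the replicate number as a block, which the pairing check did not bear out, the calls were 8, 21 and 17 against Con at 4, 6 and 8 weeks and 7, 18 and 16 against NCAC. Depth limits low members most, and members under 1 TPM could not be compared.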
